A study of Arabidopsis thaliana with 16 samples.

Results

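The genes described here encode basic helix-loop-helix (bHLH) transcription factors of Arabidopsis thaliana. They were chosen as the nuclear protein-coding genes whose protein is described in the RefSeq annotation of TAIR10.1 as a basic helix-loop-helix (bHLH) DNA-binding protein. This gave 117 of 27444 genes, of which 53 carried a symbol in the annotation and 64 were known only by a locus identifier. PLETHORA (PLT) proteins are AP2-domain transcription factors that act in meristems, and the study asked where PLT3, PLT5 and PLT7 bind genomic DNA of the shoot. The data were 16 DNA affinity purification sequencing (DAP-seq) libraries, in which 3xFLAG-tagged PLT3, PLT5, PLT7 or GFP, made in vitro, was incubated with isolated DNA and the bound fragments were sequenced. The DNA came from Col-0 wild type and was taken from shoot apical meristems (SAMs) of 9-day-old seedlings or from inflorescence meristems (IMs) of plants grown for 4 to 8 weeks on soil, with 500 pooled meristems and 2 replicates for each bait and tissue. GFP served as the control bait. The DNA carries no nucleosomes, so the peaks describe binding in vitro and not occupancy in the meristem, and all baits of a tissue were offered the same kind of DNA.

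bHLH proteins contact DNA through a basic region and pair with one another through the adjoining helices, so that a cell's set of partners decides which complexes form. Some family members lack a working basic region and hold their partners away from DNA. In Arabidopsis the family directs carpel and fruit patterning, stomatal fate, vascular divisions, iron uptake, trichome and root hair growth, tapetum development and the responses to light, brassinosteroid and jasmonate, and the HECATE members also act in the shoot meristem.

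Peaks were sought in a window that ran from 1500 bp ahead of the gene start to 500 bp past it. To show what DNA lay at the positions on which the results turn, a PLT7 summit in IM DNA is printed with the 50 bases to each side for 7 genes, in the direction of the gene, with sequence and coordinates from RefSeq TAIR10.1. Capitals mark matches on either strand to either of 2 patterns within the long DNA site known for AINTEGUMENTA, an AP2-domain relative of the PLTs. One is TNCCNANG and the other is CAC, any 3 bases and then TNCC, where N is any base. HEC2, HEC1 and SPT represent the carpel genes, AT1G68920 and AT4G28790 had the highest mean fold enrichments of PLT7 in the IM, and NAI1 and TT8 are shown as windows without a match.
HEC2 (chr3:18659563-18659663, minus strand): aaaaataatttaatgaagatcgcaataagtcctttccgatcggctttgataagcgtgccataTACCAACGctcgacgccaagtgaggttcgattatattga
HEC1 (chr5:26764886-26764986, plus strand): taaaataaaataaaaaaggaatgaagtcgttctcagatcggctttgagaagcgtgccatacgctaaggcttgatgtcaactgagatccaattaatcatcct
SPT (chr4:17414348-17414448, plus strand): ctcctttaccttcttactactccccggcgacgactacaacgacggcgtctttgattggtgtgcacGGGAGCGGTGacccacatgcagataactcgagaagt
AT1G68920 (chr1:25912653-25912753, plus strand): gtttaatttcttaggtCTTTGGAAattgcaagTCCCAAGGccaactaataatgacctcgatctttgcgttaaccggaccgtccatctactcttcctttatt
AT4G28790 (chr4:14216637-14216737, plus strand): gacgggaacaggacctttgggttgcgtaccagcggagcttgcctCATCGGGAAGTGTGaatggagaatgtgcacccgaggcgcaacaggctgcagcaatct
NAI1 (chr2:9683277-9683377, plus strand): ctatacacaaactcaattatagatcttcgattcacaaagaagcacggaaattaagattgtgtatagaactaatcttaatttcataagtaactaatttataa
TT8 (chr4:6180327-6180427, plus strand): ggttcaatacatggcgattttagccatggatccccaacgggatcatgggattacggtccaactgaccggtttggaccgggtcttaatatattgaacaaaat

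The windows at HEC2 and HEC1 resembled each other. Without gaps, 57.6% of 99 aligned bases were identical, and the runs gatcggctttga and aagcgtgccata, each of 12 bases, stood in both, separated by a single position. The first run began at base 38 of the HEC2 window and base 36 of the HEC1 window, counted from the 5′ end. Among 60 PLT7 windows in IM DNA, compared in both orientations over at least 60 aligned bases, the highest identity of any other pair was 53.7%, and the longest run shared by any other pair was 15 bases. TNCCNANG matched the HEC2 window and neither pattern matched the HEC1 window, where the fold enrichment was nearly as high. At SPT the summit lay in a coding exon. The AT4G28790 window had 1 match to each pattern, and these overlapped.

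Peaks were first counted in each library as deposited, without merging replicates. In the SAM, 67 and 55 of the 117 bHLH genes had a PLT3 peak in the 2 replicates (57.3% and 47.0%), where 53.4% and 40.4% of all genes had one. The counts were 19 and 9 for PLT5 (16.2% and 7.69%; all genes 12.4% and 6.79%) and 69 and 63 for PLT7 (59.0% and 53.8%; all genes 51.9% and 46.1%). In the SAM, PLT7 and PLT3 were thus found at similar numbers of bHLH genes and PLT5 at far fewer, and the order was the same in the IM. There, 63 and 56 bHLH genes had a PLT3 peak (53.8% and 47.9%; all genes 52.1% and 51.5%). For PLT5 the IM counts were 23 and 28 (19.7% and 23.9%; all genes 19.9% and 19.3%), and for PLT7 they were 68 and 70 (58.1% and 59.8%; all genes 55.4% and 54.9%). PLT7 was therefore found at most bHLH genes and PLT5 at few, and in every PLT library the share of all genes lay within the Wilson interval of the share of bHLH genes, as the plot of shares by library shows. The GFP libraries had peaks at 22 and 17 bHLH genes in the SAM (18.8% and 14.5%; all genes 12.7% and 13.4%) and at 31 and 21 in the IM (26.5% and 17.9%; all genes 23.3% and 16.8%). Replicate 1 of GFP in the SAM was the only library whose interval (12.8 to 26.8%) did not include the share of all genes. After filtering, the GFP libraries kept far fewer mapped reads than those of the PLTs, by the study's read statistics. They listed between 5090 and 10003 peaks against 3934 to 32232 in the PLT libraries.

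**Figure D1:**
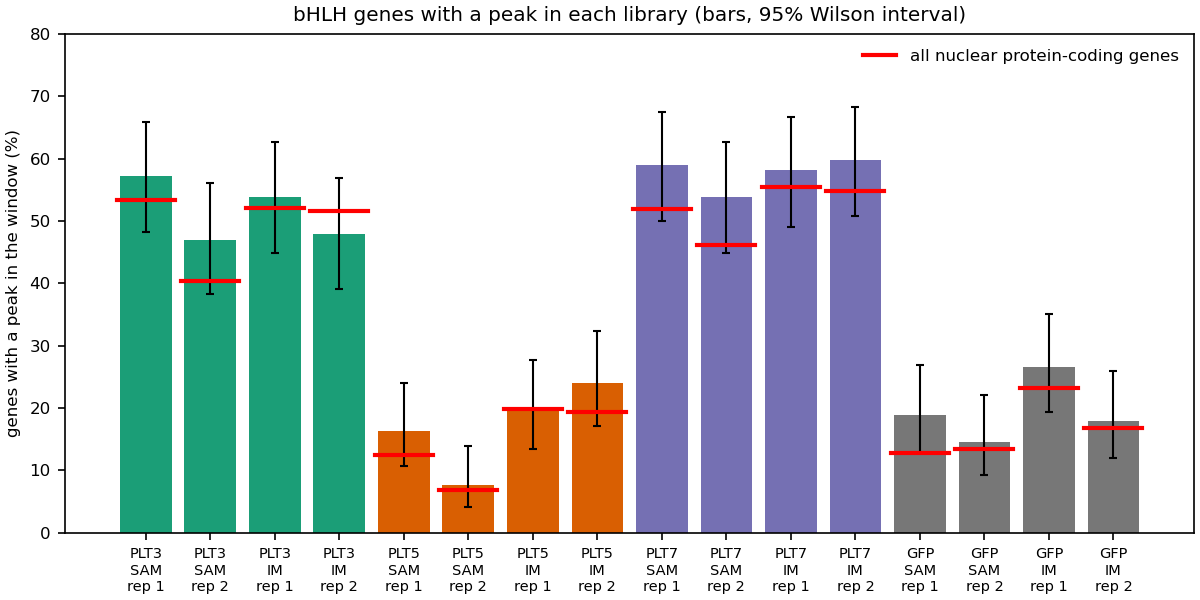
Percentage of the 117 bHLH genes with at least 1 deposited peak in the window, for each of the 16 libraries (x axis, bait, tissue and replicate). Bars give the bHLH genes with 95% Wilson intervals, which cover counting error only, and red lines give all 27444 nuclear protein-coding genes. The PLT7 bars stand at 53.8% to 59.8% and the PLT5 bars at 7.69% to 23.9%, and the red line lies within the interval in 15 of 16 libraries.

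Over the 4 libraries of a bait, the number of bHLH genes with a peak was 60.25 ± 5.74 for PLT3, 19.75 ± 8.06 for PLT5 and 67.5 ± 3.11 for PLT7 (mean ± SD, n = 4). All PLT5 libraries lay below all PLT3 and PLT7 libraries. The tests between baits relabelled libraries freely across tissues, although each bait had libraries of both tissues. PLT7 exceeded PLT5 by 47.75 genes and PLT3 exceeded PLT5 by 40.5 genes, each with p = 0.0286 in a two-sided exact permutation test over libraries, which is the smallest p that 70 relabelings allow, and an adjusted p of 0.114 over the 8 tests of this family. PLT7 exceeded PLT3 by 7.25 genes, and their ranges of 63 to 70 and 55 to 67 overlapped (exact permutation p = 0.0857, adjusted 0.171). IM libraries had 4.33 more bHLH genes with a peak than SAM libraries, 51.3 ± 20.6 against 47.0 ± 26.2 (n = 6 each), with the relabelling kept within a bait (exact permutation p = 0.25, adjusted 0.333). With only the strongest 3934 peaks of each library by fold enrichment, the IM-minus-SAM difference was -0.5, and without replicate 2 it was -0.333.

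The share of bHLH genes divided by the share of all genes sets each count against all genes of the same library. The ratio still varied with the number of peaks. For PLT7 it ran from 1.30 to 1.66 with the strongest 3934 peaks of each library and from 1.05 to 1.17 with all peaks. With all peaks the ratio was 1.05 ± 0.0978 for PLT3, 1.17 ± 0.139 for PLT5 and 1.11 ± 0.0521 for PLT7 (mean ± SD, n = 4). The ranges of the 3 baits overlapped. PLT7 minus PLT3 was 0.0607 (exact permutation p = 0.314, adjusted 0.359) and PLT3 minus PLT5 was -0.116 (exact permutation p = 0.229, adjusted 0.333). For PLT7 minus PLT5 the difference was -0.0551 (exact permutation p = 0.514), and with equal numbers of peaks it was 0.325 (exact permutation p = 0.0286, adjusted 0.114). With equal numbers of peaks PLT3 minus PLT5 also turned, to 0.0789, and with a window of 3000 bp upstream and 1000 bp downstream PLT7 minus PLT3 was -0.0065. The ratio was 1.16 ± 0.0775 in the SAM and 1.05 ± 0.106 in the IM (n = 6 each), a difference of -0.108 for IM minus SAM (exact permutation p = 0.0648, adjusted 0.171). None of the 8 tests passed an adjusted p of 0.05.

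A gene was called bound when a reproducible peak overlapped its window, that is, a peak found in both replicates with an irreproducible discovery rate (IDR) below 0.05 and no overlap with a GFP peak of the same tissue. PLT7 bound 51 of the 117 bHLH genes in the SAM (43.6%, 95% Wilson interval 35.0 to 52.6%), where 37.6% of all genes were bound, and 53 in the IM (45.3%, 36.6 to 54.3%; all genes 42.1%). PLT3 bound 37 in the SAM (31.6%, 23.9 to 40.5%; all genes 29.5%) and 34 in the IM (29.1%, 21.6 to 37.8%; all genes 32.5%). PLT5 bound 7 in the IM (5.98%, 2.93 to 11.8%; all genes 3.41%) and 1 in the SAM (0.855%, 0.151 to 4.68%; all genes 0.82%). Each interval, which covers counting error only, includes the share of all genes. With replicate 1 alone, and therefore without the IDR step, PLT3 reached 59 bHLH genes on SAM DNA and 55 on IM DNA (all genes 49.9% and 47.0%), and PLT5 17 and 19 (all genes 11.0% and 16.7%). With replicate 2 alone, PLT5 reached 9 on SAM DNA and 22 on IM DNA (all genes 6.23% and 15.8%). With a window of 1000 bp upstream only, PLT7 bound 30 in either tissue, where 22.5% of all genes were bound in the SAM and 25.1% in the IM.

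At least 1 of the 6 datasets bound 62 bHLH genes (all genes 50.8%), which left 55 bound in none. PLT3 and PLT7 both bound 23 bHLH genes in both tissues (19.7%; all genes 20.9%), and PLT7 alone or with others bound 43 in both tissues (36.8%; all genes 32%). In the IM each of the 34 genes bound by PLT3 was also bound by PLT7 (29.1%; all genes 29.5%), so that PLT3 without PLT7 was seen at 0 (all genes 3.01%). In the SAM, PLT3 and PLT7 shared 35 genes (29.9%; all genes 26%), and 2 had PLT3 without PLT7 (1.71%; all genes 3.46%). No bHLH gene was bound by PLT5 without PLT7 (all genes 0.0219% in the SAM and 0.0875% in the IM). PLT7 without PLT3 was seen at 16 genes in the SAM (13.7%; all genes 11.5%) and at 19 in the IM (16.2%; all genes 12.6%). These datasets share the GFP peaks that were removed, so they are not independent of one another.

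Of the libraries as deposited, all 12 made with a PLT had a peak at 7 bHLH genes (5.98%; all genes 3.8%), and none of the 12 at 29 (24.8%; all genes 28%). The 7 were HEC1, HEC2, AT1G30670, AT4G28790, AT1G71200, AT2G31730 and AT5G10570. A further 5 had a peak in 11 libraries, namely SPCH, SPT, NAI1, AT2G20100 and AT5G43175. AT1G29950 was the only bHLH gene bound in all 6 datasets (all genes 0.543%), although its peak was listed in the window in only 9 libraries. Its summit lay 655 to 670 bp past the start, in an intron or a 5′ untranslated exon and outside the window, and in 3 libraries the peak ended before it reached the window. The grid of fold enrichments shows PLT7 as the brightest block in these genes and PLT5 as the weakest.

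**Figure D2:**
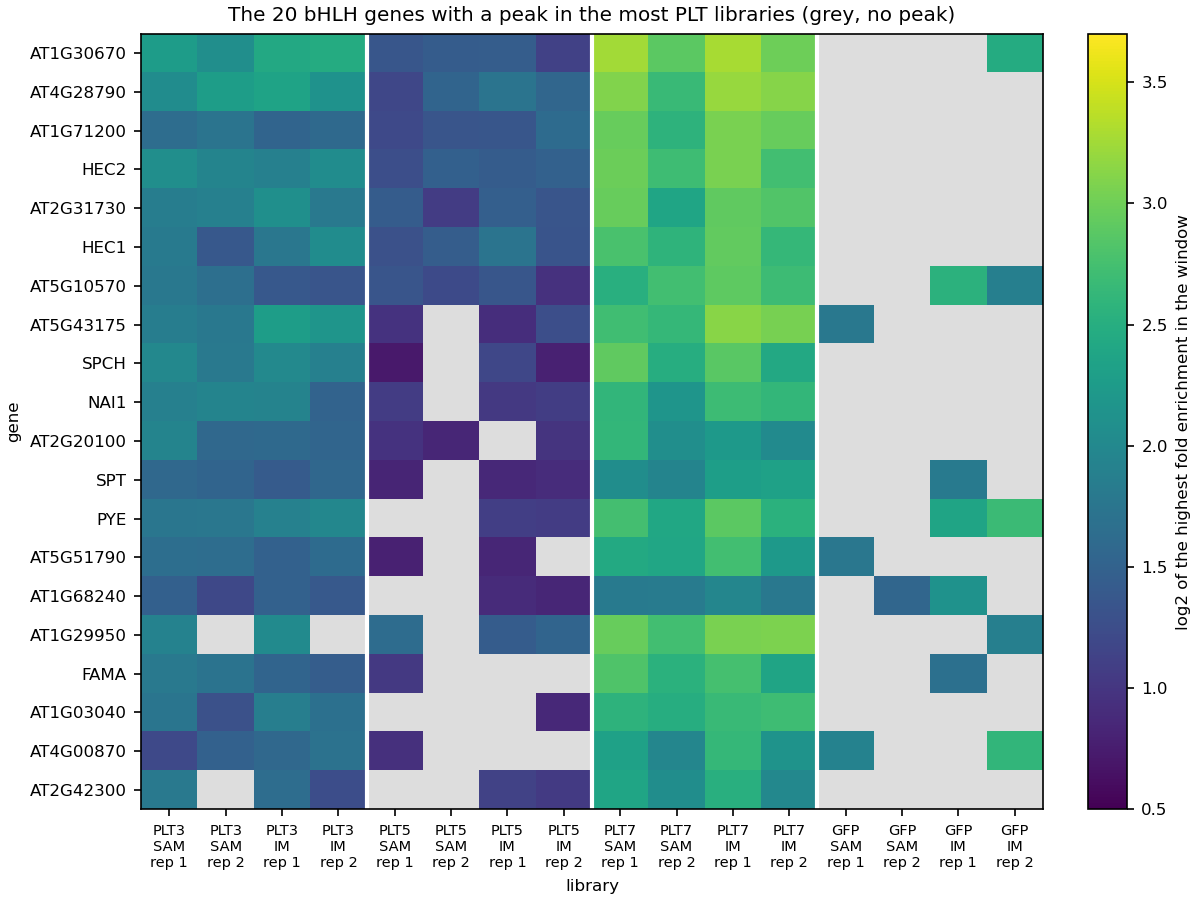
Log2 of the highest fold enrichment among deposited peaks overlapping the window (colour), for the 20 bHLH genes with a peak in the most PLT libraries (rows) in the 16 libraries (columns, by bait, tissue and replicate). Grey marks no peak. The 7 top rows have a peak in all 12 PLT libraries, and PLT7 columns are brighter than PLT3 and PLT5 columns.

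The carpel, fruit and meristem list held 6 of these genes. Of them 3, HEC1, HEC2 and SPT, were bound by PLT3 and PLT7 in both tissues (all genes 20.9%). HEC2, which with HEC1 promotes growth of the carpel's transmitting tract and tempers the balance of auxin and cytokinin in the meristem, had PLT7 fold enrichments of 7.88 and 6.52 on SAM DNA and of 8.29 and 6.67 on IM DNA. Its PLT3 values were 4.24 and 3.85 on SAM DNA and 3.72 and 4.16 on IM DNA. Its PLT5 values were 2.41 and 2.79 on SAM DNA and 2.69 and 2.82 on IM DNA. The 3 baits did not overlap at HEC2, and no GFP library had a peak there. The PLT7 summits lay between 1226 and 1239 bp upstream of the start, on the stretch printed above. HEC1 had PLT7 values of 6.88 and 5.97 on SAM DNA and of 7.61 and 6.18 on IM DNA. PLT3 gave 3.54 and 2.61 on SAM DNA and 3.41 and 4.15 on IM DNA at HEC1, and PLT5 gave 2.45, 2.71, 3.31 and 2.52. Here PLT3 and PLT5 overlapped and PLT7 stood above both, with its summits 1054 to 1058 bp upstream and no GFP peak. HEC1 and HEC2 were also among the 7 genes bound by PLT5 in the IM.

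SPT encodes SPATULA, a partner of the HECATE proteins in the carpel margin. Its PLT7 values were 4.19 and 3.86 on SAM DNA and 4.89 and 5.01 on IM DNA, and its PLT3 values ran from 2.67 to 3.00. PLT5 peaks were listed at SPT in 3 of 4 libraries with values of 1.79, 1.82 and 1.88, and a GFP peak in 1 IM library reached 3.52. The main PLT7 summit in the IM stood 315 bp downstream of the start, in a coding exon, and a weaker reproducible PLT7 peak lay 539 bp upstream with values of 2.02 and 1.97. HEC3 had a PLT7 peak in only 1 replicate of each tissue, at 3.67 and 2.72, and was not bound, while GFP peaks of 3.20 and 5.25 occurred in its window. ALC, which acts with SPT and in pod opening, had PLT3 peaks of 2.12, 2.00 and 1.60 and no PLT7 peak. No PLT peak was listed at IND, the valve margin regulator, although 1 GFP library had one of 3.07.

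**Figure D3:**
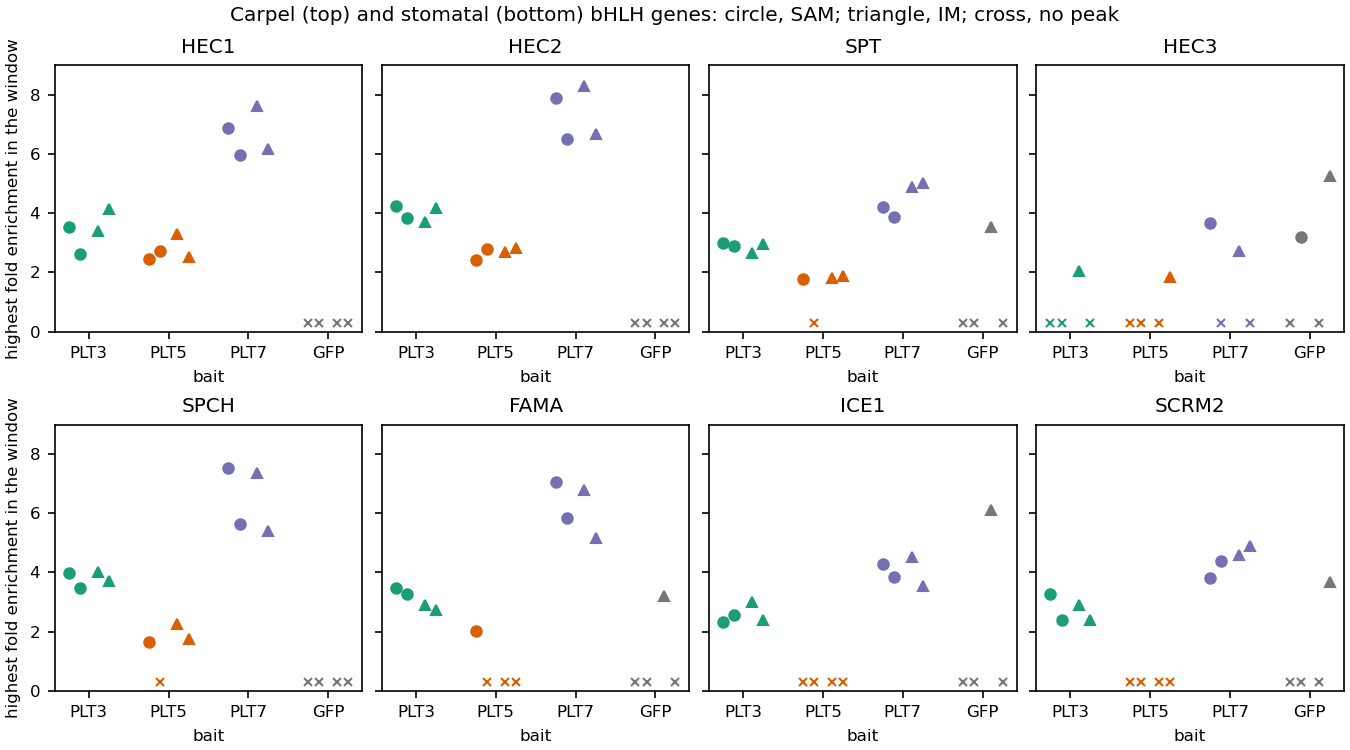
Highest fold enrichment of a deposited peak in the window (y axis, ratio to local background) by bait (x axis) for 4 carpel genes (top) and 4 stomatal genes (bottom). Circles are SAM libraries, triangles IM libraries and crosses near 0 mark libraries without a peak. PLT7 points stand above all PLT3 points in the 7 panels other than HEC3, where most libraries had no peak.

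Of the 5 stomatal genes, SPCH, FAMA, ICE1 and SCRM2 were bound by PLT3 and PLT7 in the SAM (all genes 26%). MUTE was bound in no dataset. SPCH starts the stomatal lineage, and its PLT7 values were 7.55 and 5.65 on SAM DNA and 7.35 and 5.39 on IM DNA. PLT3 gave 3.99 and 3.47 on SAM DNA and 4.01 and 3.71 on IM DNA at SPCH. No GFP library had a peak there, and the PLT7 summits lay 333 to 346 bp downstream of the start. FAMA, which completes guard cell fate, had PLT7 values of 7.05 and 5.85 on SAM DNA and 6.78 and 5.17 on IM DNA. FAMA was nevertheless called bound only in the SAM, because a GFP peak of 3.21 in 1 IM library removed the IM call. ICE1 and SCRM2, the partners of SPCH, MUTE and FAMA, had lower PLT7 values, from 3.54 to 4.53 and from 3.80 to 4.88. GFP peaks of 6.11 at ICE1 and 3.69 at SCRM2 were listed in 1 IM library each, and both genes stayed bound in the IM since these peaks did not overlap those of the PLTs. At MUTE, the step between SPCH and FAMA, 1 PLT3 library had a peak of 1.88 and 1 PLT5 library a peak of 1.65.

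None of the 3 genes on the vascular and axillary list was bound, and none had a peak in any of the 12 PLT libraries. Of all genes, 50.8% were bound in at least 1 dataset and 28% had no PLT peak. They were T5L1, which promotes divisions of vascular cells with its partner LHW, AT2G41130 and AT3G56770. GFP peaks were listed at AT2G41130 in 1 library and at AT3G56770 in 3. The list held 5 further genes outside the annotation phrase. Of these, 2 were bound in at least 1 dataset, both by PLT7 in the IM. TMO5, another partner of LHW, was the only 1 of the 5 without a PLT peak.

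The iron list held 14 genes, the largest number of any list, and 11 of them were bound in at least 1 dataset, 10 by PLT7 in the SAM and 8 by PLT7 in the IM, 6 by PLT3 in the SAM and 3 by PLT3 in the IM. Of all genes, 50.8% were bound in at least 1 dataset, 37.6% and 42.1% by PLT7 and 29.5% and 32.5% by PLT3 in the SAM and IM, respectively. PYE, a repressor of iron storage and transport genes in roots, had PLT7 values of 6.69 and 5.29 on SAM DNA and 7.42 and 5.84 on IM DNA. Both IM GFP libraries had a peak in its window, at 5.16 and 6.39, that did not overlap the reproducible PLT peaks. NAI1, which directs the formation of endoplasmic reticulum bodies, had PLT7 values of 6.11 and 4.50 on SAM DNA and 6.46 and 6.16 on IM DNA and no GFP peak. BHLH101, a partner of the iron uptake regulator FIT, had PLT7 values from 4.09 to 5.24 in all 4 libraries but was called bound in the SAM only, with GFP peaks of 3.44 and 4.12 in the IM. Its relative bHLH39 was bound by PLT7 in both tissues at 2.63 to 3.61, whereas bHLH38, another close relative, had no peak in any library. PLT7 enrichments were low at bHLH121 (2.44 to 2.64) and at ILR3 (1.86 to 3.10), which both take part in the response to iron deficiency.

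All 6 genes on the brassinosteroid and cryptochrome list were bound by PLT7 in the IM, and 2 of them, BIM1 and CIB4, in the SAM, where PLT7 bound 42.1% of all genes in the IM and 37.6% in the SAM. Most peaks were modest. BIM1, a partner of the brassinosteroid factor BES1, had PLT7 values of 3.93, 3.15, 4.13 and 3.75 with a summit 536 to 550 bp downstream of the start. CES, which promotes brassinosteroid synthesis, gave 5.65 and 4.81 in the IM, and a peak of 5.05 in only 1 SAM library. The PLT7 summit in the IM lay outside the window, at -1945 bp from the CES start (negative upstream). The PLT3 summit in the IM was also outside it and nearest to the start of MYB116, at 1014 bp. HBI1, a promoter of cell elongation, had PLT7 peaks of 4.34 and 3.49 in the IM and none in the SAM. CIB2, CIB3 and CIB4, related to the cryptochrome partner CIB1, reached no more than 3.25. The list held 7 further genes whose annotation lacks the phrase used here. Of these, 2 were bound by PLT7 in the IM, and 4 had no PLT peak in any library (all genes 28%). CIB5, among these 7, had a peak in all 12 PLT libraries. Its PLT7 values were 9.34 and 9.42 on SAM DNA and 11.9 and 9.61 on IM DNA.

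Of 5 HLH proteins without a DNA-binding basic region, PRE1 and AIF4 were bound (all genes 50.8% in at least 1 dataset). PRE5, KDR and AIF2 had no PLT peak (all genes 28%). PRE1, which favours elongation, had PLT7 values of 4.10, 4.80, 4.75 and 4.27 at 263 to 266 bp upstream. GFP peaks of 3.97 and 4.51 in the IM lay elsewhere in its window, with summits 1341 and 1468 bp upstream. On the trichome, flavonoid and root hair list, 3 of 6 genes were bound by PLT7 in both tissues (all genes 32%). TT8, an activator of seed coat pigment genes, had PLT7 values of 4.97 and 4.15 on SAM DNA and 7.53 and 6.98 on IM DNA. PLT3 peaks at TT8 were confined to the IM libraries, at 3.56 and 3.45. AT5G43175 followed the same order, with PLT7 values of 6.57 and 6.20 on SAM DNA and 8.75 and 8.27 on IM DNA and PLT3 values of 3.62, 3.45, 4.86 and 4.51. GL3, a trichome regulator, had PLT7 values from 2.81 to 3.33. Its partner in function EGL3 had no PLT7 peak and GFP peaks in 3 libraries.

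DYT1, which sets off tapetum development in anthers, was the only bound gene of 5 on the tapetum list (all genes 50.8% in at least 1 dataset). Its PLT7 values were 6.10 and 5.41 on SAM DNA and 7.29 and 5.87 on IM DNA, with summits inside another protein-coding gene. AMS, another tapetum regulator, had no peak in any library. On the flowering list, FBH1 and FBH4, activators of CONSTANS, were bound by PLT7 in both tissues (all genes 32%). FBH2 and FBH3 were bound in no dataset. JAM2 and JAM3, repressors of jasmonate responses, and HFR1 and UNE10 of the light list were also unbound. Outside the annotation phrase, 3 of 5 listed jasmonate genes and 5 of 7 listed light genes were bound in at least 1 dataset. Of the genes with the phrase, the 59 on no list included 30 bound in at least 1 dataset. The 58 listed genes with the phrase included 32, where 50.8% of all genes were bound.

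The highest enrichments belonged to genes known mainly by their locus identifier. AT1G68920, also named CIL1, had a reproducible PLT7 peak of 12.5 and 8.77 on SAM DNA and of 12.7 and 11.1 on IM DNA. PLT3 gave 6.14 and 6.01 at the same place in the SAM. The summit, however, was 2273 to 2275 bp upstream, outside the window, and closer to the start of WIT2, at 1424 to 1426 bp. A second PLT7 peak lay 97 to 108 bp downstream of the AT1G68920 start, with values from 3.42 to 3.92. AT1G30670 had PLT7 values of 9.56 and 7.42 on SAM DNA and 9.76 and 7.98 on IM DNA, with summits 1660 to 1671 bp upstream and inside another gene. AT4G28790 had PLT7 values of 8.54 and 6.35 on SAM DNA and of 9.27 and 8.69 on IM DNA. Its PLT3 values of 4.15 and 4.86 on SAM DNA and 5.11 and 4.39 on IM DNA lay below all of these, and its PLT5 values ran from 2.26 to 3.32. That summit too lay inside a neighbouring gene and was nearer to the start of AT4G28780. Peaks in the window thus need not belong to the bHLH gene. Of the 51 genes bound by PLT7 in the SAM, 44 had a peak whose nearest gene start was their own, and this held for 46 of 53 in the IM. The same count was not made over all bound genes, so these shares cannot be set against theirs. No peak lay in the windows of more than 1 bHLH gene.

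**Figure D4:**
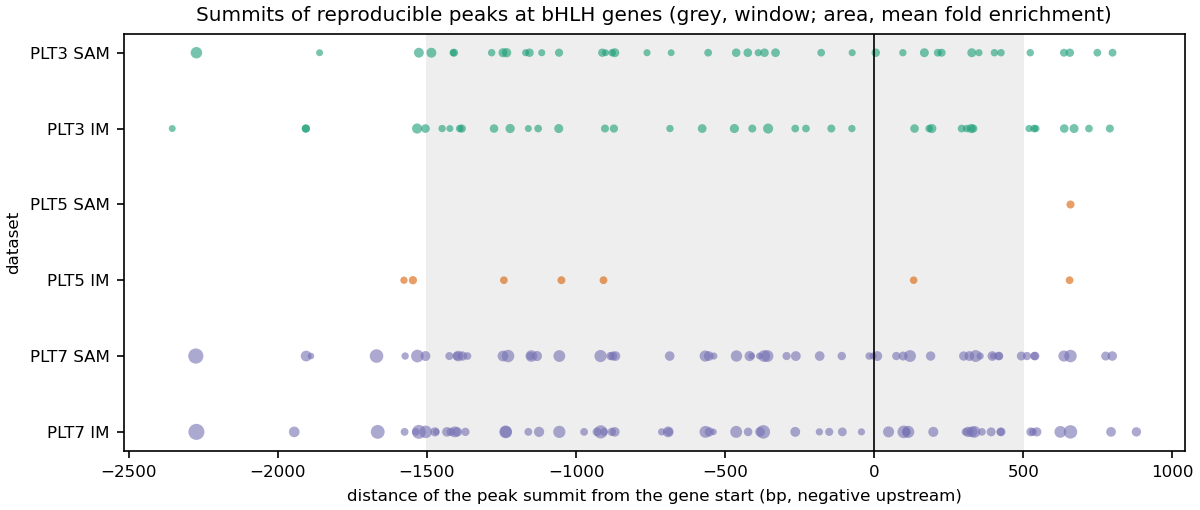
Position of each reproducible peak summit at a bHLH gene relative to the gene start (x axis, bp, negative upstream), by dataset (rows). The grey band is the window, and the area of a point is proportional to the mean fold enrichment of both replicates. Summits outside the band belong to peaks whose edge reached the window. Among them are the stronger PLT7 peaks of AT1G68920, 2273 to 2275 bp upstream, and a PLT3 peak of FBH4 in the IM, further to the left.

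Summits were spread along the window. Of PLT7 summits within it, 31 of 45 in the SAM (68.9%; all genes 66.6%) and 33 of 46 in the IM (71.7%; all genes 65.2%) were upstream of the start. In the IM, 24 PLT7 summits lay upstream outside protein-coding genes, 9 inside another gene, 7 in a 5′ untranslated exon, 4 in a coding exon and 2 in an intron. By the median, bHLH genes had more free DNA in front of them than all genes together. The distance to the next protein-coding gene upstream had a median of 2681 bp (quartiles 1294 and 4872) against 1112 bp (372 and 2628) for all genes. It was 2839 bp for bound and 2457 bp for unbound bHLH genes.

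TNCCNANG was present in 14 of 60 PLT7 summit windows of this length in the IM (23.3%) and in 14 of 59 in the SAM (23.7%). The shares over the summits of all genes were 24.6% and 23.6%. In windows 500 bp to either side of the bHLH summits the pattern occurred in 8.33% and 6.78%. PLT3 windows had it in 8 of 41 in the SAM (19.5%; all genes 24.4%) and in 6 of 39 in the IM (15.4%; all genes 25%), and PLT5 windows of the IM in 3 of 7 (42.9%; all genes 26.6%). The second pattern occurred in 6 PLT7 windows of each tissue (10.2% in the SAM and 10% in the IM; all genes 8.41% and 8.20%). A match to either pattern was present in 18 of the 60 PLT7 windows of the IM and in 5 of the 10 with the highest mean fold enrichment, all 5 of them among the highest 7, and is a description of the letters only.

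PLT7 gave higher fold enrichments than PLT3 at the same genes. Among 38 bHLH genes with a peak in all 8 PLT3 and PLT7 libraries, all 4 PLT7 libraries stood above all 4 PLT3 libraries at 31, against 78.9% of the 8196 genes of this kind, and the reverse was seen at none (0% of those genes). The median log2 ratio of PLT7 to PLT3 was 0.72 for the bHLH genes and 0.64 for all 8196. Among bHLH genes with complete separation the log2 ratio was 1.26 at AT1G71200, 1.17 at AT5G10570, 1.00 at FAMA and 0.97 at HEC1. At the low end, bHLH121 had 0.17. Fold enrichment is relative to the background of each library, and the part of that background in the difference between baits was not tested.

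Fold enrichments in the tissues were set side by side gene by gene. For PLT7, both IM libraries exceeded both SAM libraries at 13 of 56 bHLH genes with a peak in all 4 (23.2%; all genes 31.4%), TT8 and AT5G43175 among them, and both lay below at 4 (7.14%; all genes 7.15%). For PLT3 the IM was higher at 5 of 40 (12.5%; all genes 28.2%) and lower at 9 (22.5%; all genes 9.93%). With 2 libraries against 2, no single gene can reach an exact permutation p below 0.333. By calls, PLT7 bound 8 bHLH genes in the SAM only (6.84%; all genes 5.57%) and 10 in the IM only (8.55%; all genes 10.1%), and PLT3 bound 13 (11.1%; all genes 6.45%) and 10 (8.55%; all genes 9.43%). Many of these calls did not reflect a missing peak. Of the 8 genes called for PLT7 in the SAM only, 6 had a PLT7 peak in both IM libraries, all 6 with a GFP peak of the IM in the window, and of the 10 called in the IM only, 5 had a PLT7 peak in both SAM libraries. A PLT7 peak in both libraries of one tissue and neither of the other was found at HBI1, AT4G28815 and AT4G28811 for the IM and at AT2G40200 for the SAM. How often this occurred among all genes was not counted. The reproducible PLT7 summits at HBI1 and AT4G28811 lay inside another protein-coding gene.

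GFP peaks touched the bHLH windows often. In all, 58 bHLH genes had a peak in at least 1 GFP library and 59 in none (50.4%; all genes 60.8%). Both GFP replicates of the SAM had a peak at 4 bHLH genes (3.42%; all genes 3.85%) and both of the IM at 10 (8.55%; all genes 9.43%). The 4 were CIB2, AT3G57800, AT1G05805 and AT2G31220, and the 10 included PYE, PRE1, BHLH101, EGL3, UNE10, AT5G10570 and AT1G05805. AT1G05805 was the only one with a peak in all 4 GFP libraries (all genes 1.51%), at 5.48, 7.24, 3.96 and 5.53, and it had no PLT7 peak. Of the 56 bHLH genes with a peak in all 4 PLT7 libraries (47.9%; all genes 40.1%), 28 had no GFP peak and 28 had at least 1. Without any PLT peak there were 12 genes with a GFP peak, and 17 genes had no peak in any of the 16 libraries. These splits by GFP peak were not counted over all genes, so they cannot be read as particular to bHLH genes. The part of GFP-type recovery in the PLT peaks at these genes was not tested.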

How the data were processed

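DAP-seq peak lists of 16 libraries (PLT3, PLT5, PLT7 and GFP on SAM and IM DNA, 2 replicates each, as the labels name them) were used. The authors trimmed, aligned and filtered reads with fastp 0.23.2, BWA 0.7.17 and SAMtools 1.15, as the submitters' processing notes list them, and called peaks in each library with MACS3 (q-value 0.1, gaps up to 100 bp, no control library). The deposited fold enrichment is a ratio to the local background. For each peak the authors also deposited the −log10 of its p-value and of its q-value. The deposited score was not used. In these lists replicates are still separate and GFP peaks still present. Reads, and so depths, were not analysed here.

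Replicates were compared by an IDR model rewritten for this purpose and tested on simulated data, with peaks ranked by fold enrichment (Python 3.11.15, scipy 1.17.1, numpy 2.4.6, pandas 2.3.3). The authors' own IDR output was not used. Peaks with an IDR below 0.05 were kept, and those sharing 1 bp with a GFP peak of the same tissue were removed. Sequence names matched the RefSeq copy of TAIR10.1, which gave genes, symbols and sequence. Bait and tissue were compared over libraries with two-sided exact permutation tests and Benjamini-Hochberg adjustment over 8 tests. Bait labels were permuted across tissues, and tissue labels within a bait. The study calls the replicates biological, each from its own pool of meristems. Figures were drawn with matplotlib 3.10.9.

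The genes, the 11 lists of bHLH genes by role, the patterns searched and the tests were chosen with earlier results of these data known. Named genes are the 20 with a peak in the most PLT libraries, the strongest of each dataset, all carpel, vascular and stomatal genes, those with GFP peaks in both replicates or PLT7 peaks in one tissue only, bHLH genes among those the study lists as differentially expressed, and the nearest genes outside the annotation phrase. Other members of the lists were named after their values were seen. The comparisons of fold enrichment between baits and tissues, of upstream distance, of window likeness and of pattern matches by fold enrichment were added after the values were seen. Alternatives were other rankings, thresholds, GFP rules, windows, gene starts and member rules, equal numbers of peaks, a replicate block and each replicate left out.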

Additional observations from a re-analysis of the deposited data

How the results depend on the processing

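The window and the replicate comparison moved the counts of bound bHLH genes most. With 1000 bp upstream only, PLT3 bound 22 in the SAM and 18 in the IM, PLT5 0 and 3, and PLT7 30 and 30 (all genes 17.7% and 19.1%, 0.470% and 1.96%, 22.5% and 25.1%). With 3000 bp upstream to 1000 bp downstream, PLT3 bound 60 and 58, and PLT5 3 in the SAM (all genes 46.2%, 50.9% and 1.5%). Without an IDR threshold PLT5 bound 9 and 15 (all genes 4.51% and 9.44%), with a ranking by p-value it bound 3 in the SAM (0.885%), and with the summit required in the window it bound 0 and 4 (0.685% and 2.81%). With 1 replicate left out, which also omits the IDR step, the counts ran for PLT3 from 49 to 59 on SAM DNA and from 48 to 55 on IM DNA, for PLT5 from 9 to 17 and from 19 to 22, and for PLT7 from 56 to 63 and from 60 to 61. The shares of all genes then ran from 38.0% to 49.9% and 46.9% to 47.0% for PLT3, 6.23% to 11.0% and 15.8% to 16.7% for PLT5, and 43.1% to 48.5% and 49.5% to 49.9% for PLT7. The GFP rules, the q-value of 0.01, the transcript starts and the wider member rule kept all 6 counts within 1.5 times.

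Directions turned as follows, with the cause not tested. The IM-minus-SAM difference in genes with a peak was -0.5 with equal numbers of peaks and ranged from -0.333 to 9 with 1 replicate left out. In the ratio to all genes, PLT7 minus PLT5 became 0.325 and PLT3 minus PLT5 0.0789 with equal numbers of peaks, and PLT7 minus PLT3 became -0.0065 with the wider window. With 1 replicate left out the differences in genes with a peak ranged from 3.5 to 11 for PLT7 minus PLT3, 47.5 to 48 for PLT7 minus PLT5 and 37 to 44 for PLT3 minus PLT5. For the ratio to all genes they ranged from 0.0388 to 0.0826, from -0.0567 to -0.0536, from -0.139 to -0.0924 and, for IM minus SAM, from -0.148 to -0.0689.

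The correlation of same-numbered deviations was between 4.85e-05 and 0.067 over 15 pairs of groups. This cannot show whether same-numbered libraries shared a pool of DNA. With the replicate block, the difference in genes with a peak was again 7.25 for PLT7 minus PLT3, 47.75 for PLT7 minus PLT5 and 40.5 for PLT3 minus PLT5 (each exact permutation p = 0.125, the smallest possible) and 4.33 for IM minus SAM (exact permutation p = 0.312). It changed no call. With 2 libraries per group the data limit what can be said of single genes. Where few GFP reads were kept, a missing GFP peak does not show that GFP recovered nothing there.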
